A study of Homo sapiens with 30 samples.

Results

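Yijin-tang is a traditional herbal formula, and 3 RNA-seq libraries of HT29 cells treated with its extract at the highest dose, 500 µg/mL, were compared with 3 libraries of cells given vehicle. HT29 is an established human colorectal adenocarcinoma cell line. These 6 of the 30 libraries of the series were taken by their titles, which name the formula, the dose level and the replicate. The extract was made with 70% ethanol and exposure lasted 24 h. The vehicle was DMSO, given as 0.1% in the treatment label and as 2% in the design text. The design text also sets some extracts at a dose taken from their toxicity, so the label dose of 500 µg/mL is uncertain. Set beside these are Yijin-tang at 20 and 100 µg/mL (n = 3 each) and Soshiho-tang, another formula, at 500 µg/mL (n = 3).

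Each gene's expression is given in CPM, its count as a share of all counts scaled between libraries, so levels are compared between libraries for 1 gene and not between genes. Calls were made where edgeR's quasi-likelihood test over 15882 genes gave an adjusted p under 0.05, in a fit of 21 libraries that share 1 estimate of the spread. Log2 fold changes carry their standard error (SE). The 6 libraries held 19.6 to 36.2 M counts. EPCAM and KRT20, surface and keratin markers of intestinal epithelium, stood at means of 522 and 236 CPM in vehicle and 546 and 239 CPM at 500 µg/mL. They are among 23 listed colonic epithelial markers, of which 7 were too low to test. ALPI and AQP8 had no count in the vehicle libraries, and SLC26A3, AQP8 and MS4A12 had none at 500 µg/mL. Of 5 immune markers PTPRC and CD3E had no count in any of the 6, and the summed level of the 5 was 7.79 to 11.2 CPM in vehicle and 7.18 to 8.53 CPM at 500 µg/mL. The macrophage and lysosome marker CD68 was called lower at 500 µg/mL (log2 -0.47, SE 0.15, adjusted p = 0.022) with overlapping groups, and not in a fit of the 6 libraries (adjusted p = 0.13) or without vehicle library 3 or high-dose library 3. The 5 fibroblast markers summed to 1.93 to 3.62 and 2.15 to 2.43 CPM and the 4 endothelial markers to 1.06 to 1.53 and 1.38 to 1.55 CPM.

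At 500 µg/mL, 2010 genes were higher (12.7% of those tested) and 1333 lower (8.39%) than in vehicle, 21% in all. Most differences were small: 93.5% of the called genes differed by less than 1.5-fold, and 33 genes were at least 2-fold higher and 33 at least 2-fold lower. Vehicle libraries carry names of another pattern than all treated ones, so in any comparison with vehicle the treatment and the library set cannot be told apart. The vehicle libraries also differed more among themselves, pairs of them giving a chi-square of 10.8 to 20.3 for each degree of freedom against 3.03 to 6.69 at 500 µg/mL. In a fit of these 6 libraries alone, 595 genes were higher (3.9%) and 445 lower (2.92%), and its counts are given in brackets as the fit of 6. With upper-quartile scaling the shared fit gave 1618 higher and 1859 lower. Without vehicle library 2, 2031 genes were lower, and without high-dose library 3, 1230 were higher.

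The libraries at 20 and 500 µg/mL share 1 pattern of names, so the difference between these doses is also given. Between them 115 genes were higher at 500 µg/mL (0.724%) and 180 lower (1.13%), 1.86% in all. At 20 µg/mL, 1640 genes were higher (10.3%) and 1057 lower (6.66%) than vehicle, 17.0% in all. Both comparisons with vehicle use the same 3 vehicle libraries, so their values are set side by side for each gene and not correlated. In fits of only the 6 libraries concerned, 428 genes were higher and 441 lower at 500 than at 20 µg/mL, and 289 were higher and 209 lower at 20 µg/mL than in vehicle.

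Several of the genes that follow are read-outs of ligand-activated regulators. The aryl hydrocarbon receptor (AHR) binds planar aromatic compounds, pairs with ARNT and switches on enzymes that oxidise and conjugate them, foremost CYP1A1. The liver X receptors (LXR) are activated by oxysterols and raise cholesterol export through ABCA1 and ABCG1, while SREBP2 drives cholesterol synthesis and uptake when membrane sterol is low. NRF2 is released from KEAP1 by electrophiles and raises glutathione, thioredoxin and aldo-keto reductase genes.

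Promoters of some genes in these groups that rose are shown with the core letters bound by AHR with ARNT (GCGTG) or by NRF2 (TGACNNNGC) marked. The genes were picked, and each window is the first listed start of its gene that holds a match. A match in a printed window was thus fixed by the choice. Windows run from 250 bases before to 50 bases after a RefSeq start on GRCh38.p14, 5′ to 3′ on the strand of the gene, with matches on either strand in capitals. CYP1A1, on the minus strand at chr15:74725479-74725778, holds 1 match that begins 57 bases before the start. UGT1A6, on the plus strand at chr2:233691452-233691751, holds 1 match, and ALDH1A3, on the plus strand at chr15:100879581-100879880, holds 2.
CYP1A1: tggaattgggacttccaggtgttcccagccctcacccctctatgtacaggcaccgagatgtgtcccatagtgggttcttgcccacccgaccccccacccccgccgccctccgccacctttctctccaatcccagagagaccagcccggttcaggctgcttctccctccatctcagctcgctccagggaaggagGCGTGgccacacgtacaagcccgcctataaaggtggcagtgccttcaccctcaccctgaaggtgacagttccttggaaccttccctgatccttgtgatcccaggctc
UGT1A6: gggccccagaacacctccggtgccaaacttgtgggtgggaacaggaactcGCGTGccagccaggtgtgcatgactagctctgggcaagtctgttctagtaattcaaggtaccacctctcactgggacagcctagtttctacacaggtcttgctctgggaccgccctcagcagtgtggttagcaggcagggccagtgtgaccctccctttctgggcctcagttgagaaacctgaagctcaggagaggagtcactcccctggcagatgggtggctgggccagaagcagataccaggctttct
ALDH1A3: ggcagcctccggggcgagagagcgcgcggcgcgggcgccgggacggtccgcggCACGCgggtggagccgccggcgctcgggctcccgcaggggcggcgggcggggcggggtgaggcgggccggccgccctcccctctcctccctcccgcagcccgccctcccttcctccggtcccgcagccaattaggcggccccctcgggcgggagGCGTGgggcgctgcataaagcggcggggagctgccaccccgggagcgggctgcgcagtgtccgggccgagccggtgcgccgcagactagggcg
GCLM, on the minus strand at chr1:93909381-93909680, holds 1 match to TGACNNNGC on the opposite strand, and TXNRD1, on the plus strand at chr12:104215529-104215828, holds 2, with 1 on each strand.
GCLM: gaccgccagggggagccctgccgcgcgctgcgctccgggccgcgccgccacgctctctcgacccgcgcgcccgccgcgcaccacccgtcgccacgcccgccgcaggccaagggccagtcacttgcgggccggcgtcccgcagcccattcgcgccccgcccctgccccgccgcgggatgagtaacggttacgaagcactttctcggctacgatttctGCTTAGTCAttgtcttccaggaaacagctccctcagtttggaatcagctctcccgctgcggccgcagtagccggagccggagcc
TXNRD1: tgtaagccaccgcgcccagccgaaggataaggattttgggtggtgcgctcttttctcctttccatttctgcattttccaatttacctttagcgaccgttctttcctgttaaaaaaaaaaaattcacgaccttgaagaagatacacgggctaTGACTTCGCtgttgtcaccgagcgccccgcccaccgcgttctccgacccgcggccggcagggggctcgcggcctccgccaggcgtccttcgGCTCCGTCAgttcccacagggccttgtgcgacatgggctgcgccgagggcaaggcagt

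GCGTG lies on either strand of 36.5% of all 35116 promoter windows of 300 bases. Of the 8 AHR targets that rose, 6 were in the table, with 14 start windows, of which 9 held it. TGACNNNGC lies in 13.3% of all windows, and of 11 start windows of 9 NRF2 targets that rose, 4 held it, from GCLM, ME1 and TXNRD1. TCACNCCAC, letters that SREBP2 binds, lies in 1.13% of all windows and in 0 of 15 start windows of 11 genes of cholesterol synthesis and uptake that were lower at 500 than at 20 µg/mL. ALDH3A1, CYP1B1, AKR1B10, GSR and SLC7A11 were not matched in the table. A match describes letters and not a bound site.

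AHR target genes rose, CYP1A1 the furthest of the genes named here. Of 9 tested members 8 rose at 500 µg/mL and none fell, in the shared fit and in the fit of 6 libraries alike, and the median log2 fold change was 0.57 against 0.00 over all genes tested. No member was lower at an unadjusted p below 0.05 or by DESeq2, but 1 was called lower when vehicle library 2 was left out. CYP1A1, which hydroxylates polycyclic aromatic compounds, stood at 0.686, 0.592 and 0.51 CPM in vehicle and at 9.41, 6.48 and 7.25 CPM at 500 µg/mL. The groups were far apart, and the fitted difference was 12.9-fold (log2 3.69, SE 0.42, adjusted p = 3e-05). At 20 µg/mL it stood at 0.708, 1.04 and 0.756 CPM, all above the vehicle libraries and all below 500 µg/mL, and its difference from vehicle was not called (log2 0.48, adjusted p = 0.71). At 100 µg/mL library 1 had 3.46 CPM and the other two had 1.33 and 1.39 CPM.

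CYP1B1, a related cytochrome P450 that also metabolises estrogens, rose from 45.5, 47.7 and 42.3 CPM to 113, 97 and 105 CPM (2.33-fold, log2 1.22, SE 0.21, adjusted p = 0.00093). Its libraries at 20 µg/mL lay at 57.8, 53.7 and 54.2 CPM, between the other groups and overlapping neither. TIPARP, an ADP-ribosyltransferase that acts back on AHR, rose from 71.5, 78.9 and 82.3 CPM to 122, 122 and 126 CPM (log2 0.67, SE 0.089, adjusted p = 5.4e-05). ALDH3A1, an aldehyde dehydrogenase, rose from 26, 26.1 and 29.5 CPM to 44.6, 37.1 and 38.5 CPM (log2 0.57, SE 0.11, adjusted p = 0.00089), and at 20 µg/mL it lay below every vehicle library, at 22.7, 21.8 and 21.2 CPM.

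The conjugating and exporting members rose less. UGT1A6 adds glucuronic acid to phenols, and its count is less certain because UGT1A genes have exons in common. It rose from 44.8, 44.6 and 43.8 CPM to 62.5, 57.7 and 61 CPM (log2 0.45, SE 0.056, adjusted p = 2.9e-06). ABCG2, a drug exporter, rose from 61.3, 64 and 62.2 CPM to 90.4, 84.3 and 88.3 CPM (log2 0.49, SE 0.041, adjusted p = 1.2e-08), and it was the only AHR target edgeR called at 20 µg/mL in the shared fit (log2 0.31, adjusted p = 1.1e-05). There DESeq2 called 2 members higher and 1 lower, as did the fit of 6, and leaving out low-dose library 1 gave 2 higher and leaving out vehicle library 2 gave 1 lower. ALDH1A3, a retinaldehyde dehydrogenase, rose by log2 0.75 (SE 0.18, adjusted p = 0.0074), and AHRR, the AHR repressor, by log2 0.42 (SE 0.12, adjusted p = 0.014). CYP2S1 overlapped between the groups (log2 -0.05, adjusted p = 0.61), and CYP1A2, LRAT and SERPINB2 were too low to test.

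Against 20 µg/mL, 6 of the 9 AHR targets were higher at 500 µg/mL (7 in the fit of 6) and none was lower, also at an unadjusted p below 0.05 and by DESeq2, with a median log2 difference of 0.45. CYP1A1 was 9.26-fold higher (log2 3.21, SE 0.41, adjusted p = 0.00058), and ALDH3A1 was higher by log2 0.88 (SE 0.11, adjusted p = 0.00023). ALDH1A3 missed the threshold (log2 0.64, adjusted p = 0.095), as did AHRR (log2 0.17, adjusted p = 0.63). Without high-dose library 3, 3 of the 9 were called, and CYP1B1 lost its call between the doses with no filter on low counts, with a replicate block and without any 1 of the 6 libraries (adjusted p = 0.053 to 0.15).

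**Figure D1:**
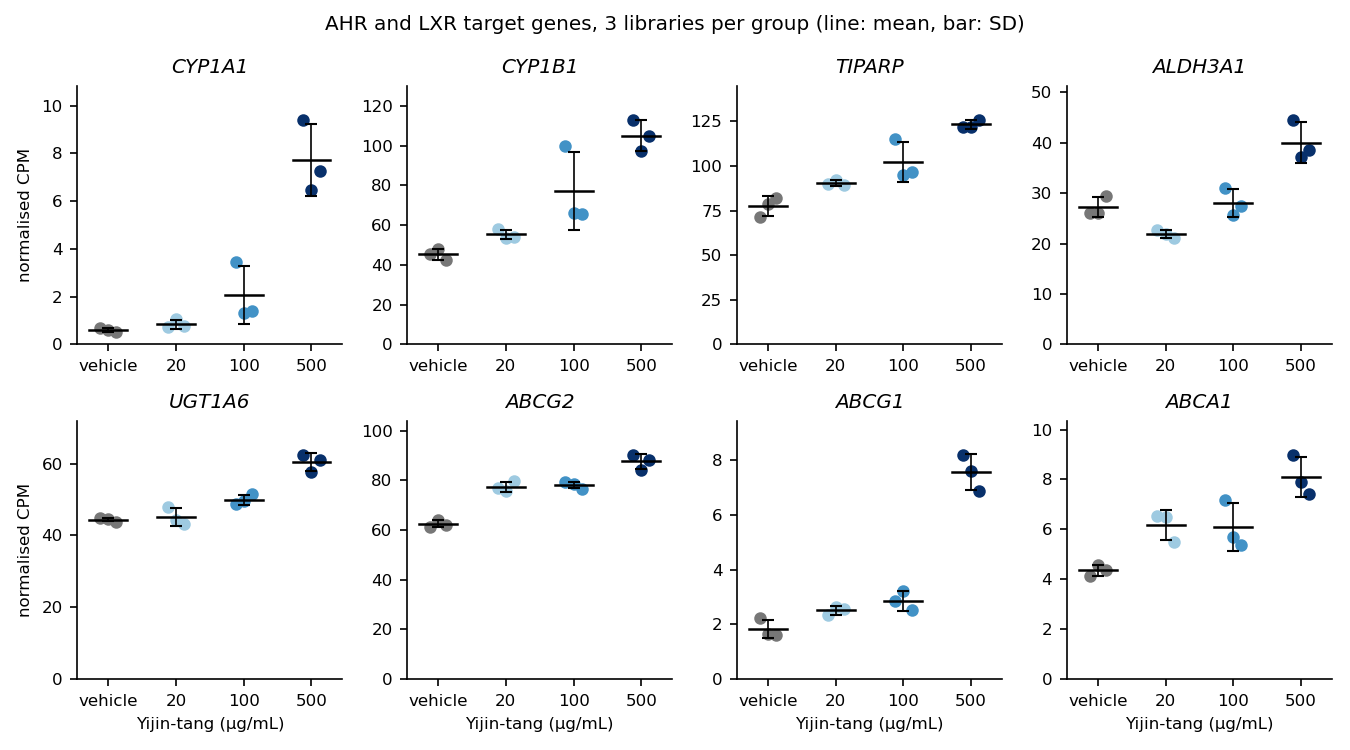
Normalised CPM (y axis, from 0) of 6 AHR targets and of the LXR targets ABCG1 and ABCA1 in each library, by Yijin-tang dose (x axis), with the mean as a line and the SD as a bar, n = 3. CYP1A1 has a mean of 0.835 CPM at 20 µg/mL and 7.72 CPM at 500 µg/mL, and the libraries of all 8 genes at 500 µg/mL lie above every vehicle library. For CYP1A1, CYP1B1, ABCG1 and ABCA1 the rule for the largest rises required this.

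LXR targets rose as well. Of 9 tested members 6 rose at 500 µg/mL and none fell (5 and 0 in the fit of 6), with a median log2 fold change of 0.30. None was lower at an unadjusted p below 0.05 or by DESeq2. ABCG1, which passes cholesterol to lipoproteins, stood at 2.22, 1.66 and 1.6 CPM in vehicle, at 2.33, 2.64 and 2.56 CPM at 20 µg/mL and at 8.21, 7.62 and 6.87 CPM at 500 µg/mL. Its rise was 4.07-fold (log2 2.03, SE 0.13, adjusted p = 1e-10), and most of it lay between 20 and 500 µg/mL (log2 1.59, SE 0.13, adjusted p = 1.1e-08). ABCA1, which loads cholesterol onto apolipoprotein A-I, rose from 4.14, 4.58 and 4.38 CPM to 9, 7.88 and 7.41 CPM (log2 0.90, SE 0.14, adjusted p = 3.6e-05). It was already higher at 20 µg/mL, at 6.53, 6.51 and 5.5 CPM (log2 0.51, adjusted p = 0.013), and its step from 20 to 500 µg/mL was not called (log2 0.39, adjusted p = 0.16).

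The intracellular LXR targets moved with them. MYLIP, the ubiquitin ligase that degrades the LDL receptor, rose from 13.8, 13.7 and 12.3 CPM to 18.2, 18 and 21 CPM (log2 0.52, SE 0.068, adjusted p = 4.4e-06), with no call at 20 µg/mL (log2 0.07, adjusted p = 0.54). LPCAT3, a phospholipid acyltransferase, rose by log2 0.30 (SE 0.044, adjusted p = 2.2e-05), and SREBF1, which encodes SREBP1, by log2 0.41 (SE 0.075, adjusted p = 0.00072). NR1H3, which encodes LXR alpha, rose by log2 0.17 (adjusted p = 0.021) with overlapping groups and was not called in the fit of 6 libraries (adjusted p = 0.16). SMPDL3A and PLTP overlapped between the groups and were not called, and ABCG5, ABCG8 and APOE were too low to test.

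Genes of cholesterol synthesis and uptake lay lower at 500 than at 20 µg/mL. Of 25 tested members 16 were lower and none higher (23 and 0 in the fit of 6), with a median log2 difference of -0.24 against 0.00 over all genes tested. None was higher at an unadjusted p below 0.05 or by DESeq2. INSIG1, which holds SREBP2 in the endoplasmic reticulum and is itself an SREBP2 target, stood at 157, 160 and 162 CPM at 20 µg/mL and at 110, 112 and 118 CPM at 500 µg/mL (log2 -0.49, SE 0.049, adjusted p = 5.8e-07). HMGCS1, which makes HMG-CoA, stood at 216, 214 and 209 CPM against 144, 156 and 156 CPM (log2 -0.49, SE 0.061, adjusted p = 5.6e-05). For both genes the libraries of the doses did not overlap.

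Set against vehicle the same genes looked different at each dose. At 20 µg/mL 11 of the 25 were higher and 1 was lower, PMVK, with a median of 0.11 (5 and 1 in the fit of 6), and PMVK lost its call without low-dose library 2. At 500 µg/mL 1 was higher and 6 were lower, with a median of -0.11 (1 and 4 in the fit of 6, and 10 lower without vehicle library 1 or vehicle library 2; 14 lower with upper-quartile scaling). INSIG1 in vehicle lay at 120, 130 and 122 CPM, below 20 µg/mL (log2 0.37, adjusted p = 9.4e-06) and above every library at 500 µg/mL, where the difference was not called (log2 -0.13, adjusted p = 0.069). HMGCS1 in vehicle lay at 165, 181 and 157 CPM, also between the doses.

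The 6 that fell below vehicle belong to the later, sterol-forming steps and to mevalonate decarboxylation. TM7SF2, a sterol reductase, fell from 35.8, 33.7 and 37.4 CPM to 27.7, 28.3 and 25.8 CPM (log2 -0.39, SE 0.052, adjusted p = 6.6e-06). SQLE, squalene epoxidase, fell from 652, 698 and 676 CPM to 562, 575 and 585 CPM (log2 -0.23, SE 0.039, adjusted p = 0.00011). EBP, MVD and LSS fell by 0.23, 0.26 and 0.23 on the log2 scale and NSDHL by 0.15, with LSS and NSDHL not called in the fit of 6 libraries (adjusted p = 0.055 and 0.13). STARD4, a sterol carrier, was the member that rose (log2 0.33, SE 0.06, adjusted p = 0.00026), from 35.3, 44.1 and 35.3 CPM to 46.6, 47.3 and 49.6 CPM, and at 20 µg/mL it stood at 54.8, 51.9 and 53.4 CPM.

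Of the lipid genes beside these, 4 of 14 members of fatty acid synthesis and desaturation rose and 2 fell. Over all genes tested 12.7% rose and 8.39% fell. SCD, the stearoyl-CoA desaturase, rose from 1288, 1200 and 1177 CPM to 1465, 1503 and 1499 CPM (log2 0.29, SE 0.039, adjusted p = 1e-05), and its libraries at 20 µg/mL lay at 1464, 1517 and 1525 CPM (log2 -0.01 between the doses, adjusted p = 0.95). ACSS2, which makes acetyl-CoA from acetate and is also an SREBP target, fell from 16.6, 14.1 and 14.3 CPM to 10.2, 8.97 and 10 CPM (log2 -0.62, SE 0.11, adjusted p = 0.0003), and it was lower than at 20 µg/mL too (log2 -0.72, adjusted p = 0.00053). Only SCD of the 4 rises was called in the fit of 6 libraries.

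NRF2 targets rose in part. Of 28 members, all tested, 12 rose at 500 µg/mL and none fell (9 and 0 in the fit of 6), with a median log2 fold change of 0.13. Against 20 µg/mL 14 were higher (21 in the fit of 6) and none lower, also at an unadjusted p below 0.05 and by DESeq2, with a median of 0.24. At 20 µg/mL 10.3% of all genes tested were higher than vehicle and 6.66% lower. Of the NRF2 targets 4 were higher there and 6 lower, with a median of -0.10, and none was called in the fit of 6. Those falls were 11 without vehicle library 1, 10 without vehicle library 2, 3 without vehicle library 3 and 2 without low-dose library 2, and the rises were 2 without vehicle library 1 or 3 or low-dose library 2 or 3. At 500 µg/mL 1 member was lower than vehicle at an unadjusted p below 0.05 and DESeq2 called no fall. Without vehicle library 1 the count of falls at 500 µg/mL was 3, and without vehicle library 2 it was 1.

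Genes of cystine import and glutathione synthesis rose. SLC7A11, the cystine and glutamate exchanger, stood at 90.8, 132 and 110 CPM in vehicle and at 215, 203 and 208 CPM at 500 µg/mL (1.88-fold, log2 0.91, SE 0.094, adjusted p = 6.6e-06). It had risen at 20 µg/mL, at 157, 164 and 158 CPM (log2 0.52, adjusted p = 0.0012). GCLM and GCLC, the modifier and catalytic subunits of glutamate-cysteine ligase, rose by log2 0.72 (SE 0.073, adjusted p = 7.4e-07) and 0.47 (SE 0.048, adjusted p = 1.6e-07). GCLM went from 42.8, 58.5 and 48.9 CPM to 82.9, 81.5 and 82.6 CPM, so the treated libraries agreed closely and vehicle library 1 was the lowest.

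The aldo-keto reductases and quinone and thioredoxin reductases rose between 20 and 500 µg/mL. AKR1B10, which reduces aldehydes, stood at 103, 102 and 108 CPM in vehicle, at 93.5, 92.2 and 89.9 CPM at 20 µg/mL and at 150, 137 and 143 CPM at 500 µg/mL (log2 0.46 against vehicle, SE 0.049, adjusted p = 2.8e-07). It was thus below vehicle at the low dose (log2 -0.18, adjusted p = 0.011) and above it at the high dose. AKR1C2 did the same (log2 -0.29 and 0.49, adjusted p = 0.03 and 0.00021), and AKR1C3 rose by log2 0.68 (SE 0.098, adjusted p = 0.00011). The AKR1C genes are near copies, and the division of reads between them is uncertain.

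NQO1, the quinone reductase, rose from 464, 480 and 485 CPM to 605, 571 and 599 CPM (log2 0.31, SE 0.048, adjusted p = 4.3e-05) and TXNRD1, thioredoxin reductase, from 316, 338 and 307 CPM to 449, 431 and 428 CPM (log2 0.45, SE 0.055, adjusted p = 4.1e-06). Neither was called at 20 µg/mL. HMOX1, which degrades heme, was at 10.6, 10.4 and 11.8 CPM in vehicle and 12.3, 11.8 and 11.6 CPM at 500 µg/mL, with overlapping groups (log2 0.12, adjusted p = 0.34). The ferritin genes FTL and FTH1 and the pentose phosphate genes PGD, TKT and TALDO1 were not called against vehicle.

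**Figure D2:**
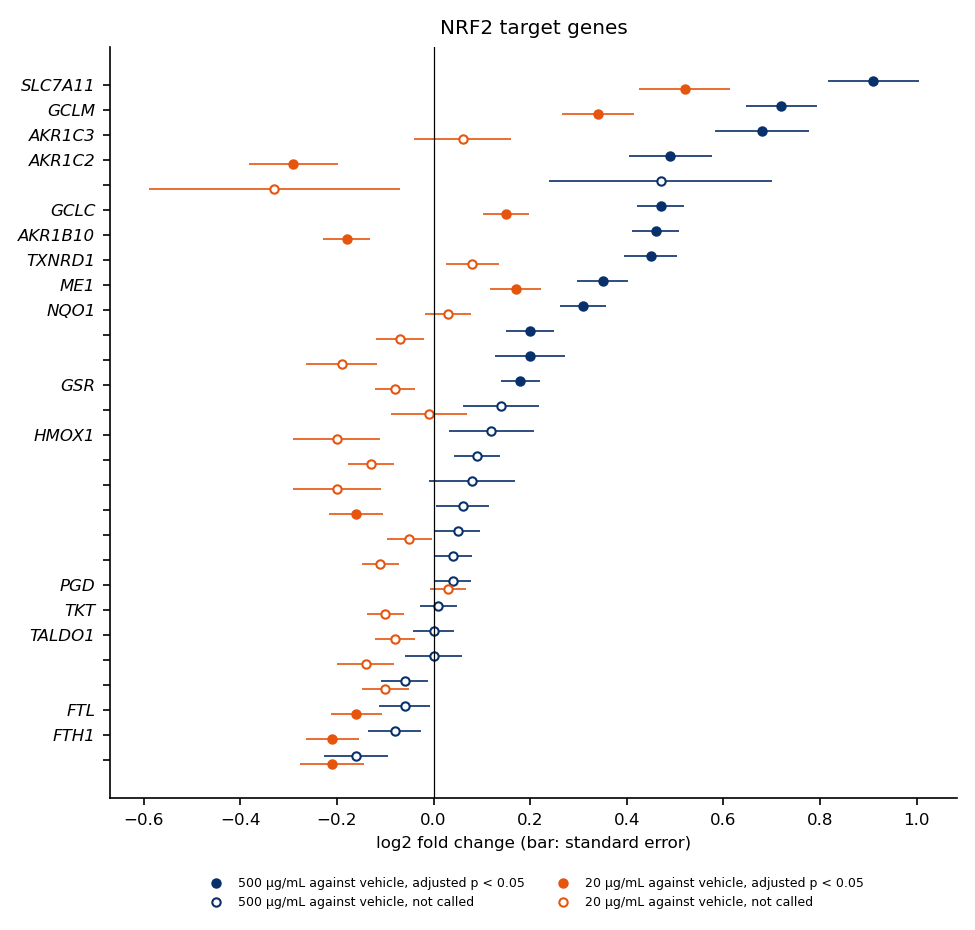
Log2 fold change with its SE (x axis) of the 28 NRF2 targets (y axis, with the genes described in the text named) at 500 µg/mL (blue) and 20 µg/mL (orange) against the same 3 vehicle libraries, with filled points for calls. The 12 filled blue points all lie above 0, and the orange points of AKR1B10 and AKR1C2 lie below 0.

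Among the remaining large rises, some followed the dose and some did not. ADGRF1, an adhesion G protein-coupled receptor, stood at 35.3, 32.7 and 31.6 CPM in vehicle, 37, 35.1 and 36.3 CPM at 20 µg/mL and 65, 55.4 and 60.6 CPM at 500 µg/mL (log2 0.86, SE 0.075, adjusted p = 7.2e-08). TMCC3, a membrane protein of the endoplasmic reticulum, rose in steps, with means of 11.5, 16.5, 17.5 and 21 CPM in vehicle and at 20, 100 and 500 µg/mL (log2 0.87, SE 0.075, adjusted p = 1.5e-08). CLK1, a kinase that phosphorylates SR splicing factors, went from 29.8, 34.7 and 31.9 CPM to 59, 55 and 59.3 CPM (log2 0.85, SE 0.069, adjusted p = 1.2e-08), but its libraries at 20 µg/mL were as high, at 62.5, 54.5 and 57.2 CPM.

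KBTBD8, a ubiquitin ligase adaptor, ZNF699, DOK3, an adaptor of tyrosine kinase signalling, and the long noncoding RNA CASC19 completed the 12 largest rises by the naming rule. Their log2 fold changes were 0.82, 0.81, 0.78 and 0.89. All 4 were below 5 CPM, and at 20 µg/mL each overlapped its libraries at 500 µg/mL.

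By the naming rule, which sets a level, separate groups and an approved-style symbol, the 12 largest falls were in genes below 25 CPM in every vehicle library. Only FAM156B of these was at least 2-fold lower, so most of the 33 genes called at least 2-fold lower are not among them. DEPP1, a FOXO target, fell from 4.2, 3.91 and 4.27 CPM to 2.17, 2.28 and 2.15 CPM (log2 -0.91, SE 0.16, adjusted p = 0.00019). CCN2, a matricellular growth factor and YAP target, fell from 4.88, 4.89 and 5.54 CPM to 2.9, 2.07 and 3.42 CPM (log2 -0.84, SE 0.14, adjusted p = 8.6e-05). MDK, the growth factor midkine, fell from 17.9, 16.6 and 20.9 CPM to 12.5, 11.8 and 9.36 CPM (log2 -0.72, SE 0.092, adjusted p = 4.1e-06). The naming rule required groups separate from vehicle, so their separation is not a result.

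Some of these falls were also called against 20 µg/mL. ANXA13, an annexin of the intestinal epithelium, stood at 15.7, 17.9 and 18.8 CPM in vehicle, 14.2, 16.2 and 16.9 CPM at 20 µg/mL and 9.38, 9.75 and 10.8 CPM at 500 µg/mL (log2 -0.80, SE 0.15, adjusted p = 0.0012; against 20 µg/mL log2 -0.66, adjusted p = 0.036). Its call against 20 µg/mL was lost with a replicate block (adjusted p = 0.057) and without any 1 high-dose library or low-dose library 2 or 3 (adjusted p = 0.076 to 0.16). FAM131B was lower by log2 -0.75 against vehicle and by log2 -0.65 against 20 µg/mL (adjusted p = 3.9e-05 and 0.0018), and RASSF10, a Ras-association domain protein, by log2 -0.85 and -0.46 (adjusted p = 9.4e-06 and 0.045). The call of RASSF10 against 20 µg/mL was lost by DESeq2 (adjusted p = 0.056), with a replicate block (adjusted p = 0.05) and without the same 5 libraries (adjusted p = 0.058 to 0.23), and that of FAM131B held under every alternative run. KRT17, a stress keratin, had instead fallen as far at 20 µg/mL (log2 -0.81) as at 500 µg/mL (log2 -0.74).

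LDLRAD2, C2orf72, SOD3, the extracellular superoxide dismutase, and BDNF, a neurotrophin, fell by 0.84, 0.75, 0.74 and 0.74 on the log2 scale, and BDNF was not called in the fit of 6 libraries (adjusted p = 0.052). FAM156B had the largest fitted fall of the genes named (log2 -1.13, SE 0.37, adjusted p = 0.044), but it has a near-identical copy. Its call was lost with no filter on low counts and without vehicle library 2 or 3 or any 1 high-dose library (adjusted p = 0.067 to 0.14).

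DNA replication genes rose by small amounts together. Of 30 tested members 21 rose and none fell, with a median log2 fold change of 0.17, but only 6 passed in the fit of 6 libraries. None was lower at an unadjusted p below 0.05 or by DESeq2. RFC3, a subunit of the clamp loader, rose from 62.5, 73.5 and 60.9 CPM to 91.8, 90.1 and 93.4 CPM (log2 0.49, SE 0.053, adjusted p = 5.3e-07), with 82.5, 79.6 and 80.7 CPM at 20 µg/mL. The helicase subunits MCM7 and MCM6 rose by log2 0.24 (SE 0.036, adjusted p = 3.3e-05) and 0.25 (SE 0.04, adjusted p = 7.7e-05), and CDC6, which loads the helicase, by log2 0.23 (SE 0.041, adjusted p = 0.00016). The low dose had 5 of the 30 higher than vehicle, none in the fit of 6, 2 without vehicle library 3 or low-dose library 1 or 2 and 1 without low-dose library 3. Over all genes tested 10.3% were higher at that dose. Between the doses 3 were higher at 500 µg/mL (12 in the fit of 6, and 20 at an unadjusted p below 0.05), a count that dropped to 0 without high-dose library 2 or 3 or any 1 low-dose library and to 1 without high-dose library 1.

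Of 24 genes of mitosis 4 rose and 1 fell (2 and 0 in the fit of 6), where 12.7% of all genes tested rose and 8.39% fell. Among the rises were the spindle protein ASPM (log2 0.36, SE 0.041, adjusted p = 8.6e-07) and the kinetochore protein CENPF (log2 0.29, SE 0.049, adjusted p = 0.00013). The proliferation marker MKI67 overlapped between the groups (log2 0.07, adjusted p = 0.37), and so did CDKN1A, which encodes the cell cycle inhibitor p21 (log2 -0.10, adjusted p = 0.42). The count of mitotic rises was 7 without vehicle library 2 and 2 without vehicle library 1 or any 1 high-dose library. Between the high and low doses neither edgeR in the shared fit nor DESeq2 called a mitotic gene. There 16 were higher and none lower at an unadjusted p below 0.05, and a fit of those 6 libraries alone called 11 higher and none lower. At the low dose 2 were higher than vehicle and 6 lower (0 and 2 in the fit of 6). Those falls were 4 to 15 when a library was left out. Over all genes tested 10.3% were higher and 6.66% lower at that dose.

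Some secretory lineage genes fell at 500 µg/mL. Of 19 tested members 6 fell and none rose (5 and 0 in the fit of 6), with a median log2 fold change of -0.28. None was higher at an unadjusted p below 0.05 or by DESeq2. CREB3L1, a transcription factor of secretory cells, fell from 214, 171 and 188 CPM to 137, 151 and 145 CPM (log2 -0.41, SE 0.075, adjusted p = 0.0008). MUC13, a membrane mucin, fell from 98.6, 108 and 109 CPM to 84.7, 90.1 and 85.9 CPM (log2 -0.28, SE 0.061, adjusted p = 0.0018), and its libraries at 20 µg/mL lay with vehicle at 110, 108 and 106 CPM. SPDEF, the goblet cell transcription factor, and REG4, a secreted lectin, fell by 0.29 and 0.33 on the log2 scale, and AGR2, a disulfide isomerase for mucins, and DLL4, a Notch ligand, by 0.28 and 0.41.

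MUC2, the main secreted gut mucin, missed the threshold (log2 -0.63, SE 0.21, adjusted p = 0.051). Its vehicle libraries were spread, at 30.7, 15.9 and 19.4 CPM, just above 15.1, 15.7 and 12.8 CPM at 500 µg/mL. At 20 µg/mL 1 of the 19 was lower than vehicle, and 1, MUC13, was lower at 500 than at 20 µg/mL (4 in the fit of 6). These stand beside 6.66% and 1.13% of all genes tested. Of 16 tested enterocyte and colonic epithelial genes 4 fell, ANXA13, LGALS4, VIL1 and KRT8, and only ANXA13 did so in the fit of 6 libraries. Over all genes tested 8.39% fell at 500 µg/mL.

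WNT target genes moved in both directions. Of 15 tested members 6 fell and 1 rose (2 and 1 in the fit of 6), with a median of -0.13. Over all genes tested 8.39% fell and 12.7% rose. SOX4, a progenitor transcription factor, fell from 171, 182 and 199 CPM to 125, 131 and 132 CPM (log2 -0.51, SE 0.056, adjusted p = 7.1e-07) and SP5 from 9.25, 9.47 and 9.99 CPM to 6.21, 7.21 and 6.75 CPM (log2 -0.52, SE 0.091, adjusted p = 0.00019). LGR5, the intestinal stem cell receptor, rose from 28.9, 30.8 and 31.1 CPM to 40.8, 39.2 and 39 CPM (log2 0.39, SE 0.05, adjusted p = 3.4e-06), with 33.8, 35 and 35.7 CPM at 20 µg/mL. AXIN2, the most used WNT read-out, overlapped between the groups (log2 0.05, adjusted p = 0.58).

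Heat shock genes fell in part at both doses. Of 18 tested members 10 were lower at 500 µg/mL and 1 higher (6 and 0 in the fit of 6), 11 were lower at 20 µg/mL (6 in the fit of 6), and edgeR called none between the doses. There 2 were higher and none lower at an unadjusted p below 0.05, DESeq2 called none, and a fit of those 6 libraries alone called 2 higher and 1 lower. HSPA1A, the inducible HSP70, stood at 279, 308 and 309 CPM in vehicle, 207, 207 and 224 CPM at 20 µg/mL and 216, 218 and 218 CPM at 500 µg/mL (log2 -0.46, SE 0.053, adjusted p = 1.5e-06). HSPA1A and HSPA1B are near-identical copies, so their division of reads is uncertain, and HSPA1B was lower by log2 -0.41. DNAJB1, an HSP40, fell from 107, 111 and 111 CPM to 79.3, 82 and 86.1 CPM (log2 -0.41, SE 0.052, adjusted p = 3.4e-06), and HSPA8, the constitutive HSP70, fell by 0.34 on the log2 scale. The mitochondrial chaperone HSPD1 was the member that rose (log2 0.18, adjusted p = 0.0043).

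Immediate early genes fell in part too. Of 20 tested members 6 fell and 1 rose (4 and 0 in the fit of 6), and 6 were lower at 20 µg/mL (2 in the fit of 6). Over all genes tested 8.39% fell and 12.7% rose at 500 µg/mL, and 6.66% were lower at 20 µg/mL. KLF6 stood at 129, 150 and 150 CPM in vehicle, 101, 101 and 111 CPM at 20 µg/mL and 92.8, 103 and 107 CPM at 500 µg/mL (log2 -0.50, SE 0.055, adjusted p = 5.3e-07), and DUSP1, a MAP kinase phosphatase, fell by 0.45 on the log2 scale at 500 µg/mL and 0.47 at 20 µg/mL. BTG2, an antiproliferative gene, differed from these: it was at 36.2, 34.8 and 38.6 CPM in vehicle, 39.5, 39.8 and 41 CPM at 20 µg/mL and 28.9, 30.5 and 31.5 CPM at 500 µg/mL (log2 -0.41 between the doses, adjusted p = 5.2e-05). The 1 rise, KLF10, was lost without vehicle library 3 or high-dose library 3, and 3 rose without vehicle library 1.

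Of 23 genes of SR proteins, hnRNPs and CLK kinases 7 rose and none fell (3 and 0 in the fit of 6), and edgeR called none between the doses, where 1 had an unadjusted p below 0.05 and DESeq2 called none. Against vehicle 1 was lower at an unadjusted p below 0.05 and DESeq2 called 1 fall. Over all genes tested 12.7% rose and 8.39% fell against vehicle. CLK4 went from 8.42, 10 and 10 CPM to 13.4, 13.1 and 13.5 CPM, with 13.3, 14.2 and 13.7 CPM at 20 µg/mL, and HNRNPDL rose by log2 0.36 (adjusted p = 1.8e-05). The count was 4 without vehicle library 1, high-dose library 1 or high-dose library 3, and 3 members fell without vehicle library 1.

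**Figure D3:**
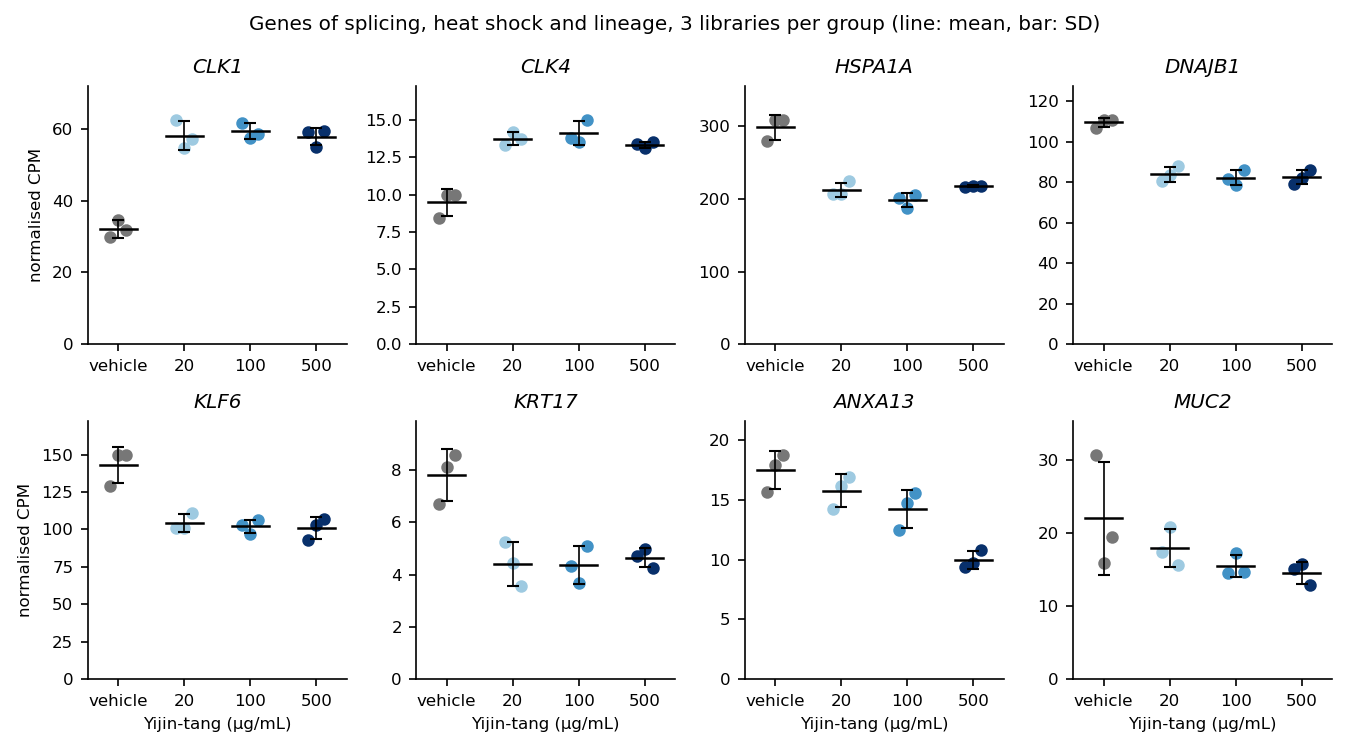
Normalised CPM (y axis, from 0) in each library by Yijin-tang dose (x axis), with the mean as a line and the SD as a bar, n = 3. CLK1, CLK4, HSPA1A, DNAJB1, KLF6 and KRT17 are at about their 500 µg/mL level already at 20 µg/mL, while ANXA13 is lower at 500 µg/mL than in every other library and the vehicle libraries of MUC2 are widely spread.

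Few interferon response genes were called at either dose. Of 24 tested members 4 were lower and 1 higher at 500 µg/mL (2 and 0 in the fit of 6), with a median of -0.11. Over all genes tested 8.39% were lower and 12.7% higher there. At 20 µg/mL 4 members were higher and none lower, with a median of 0.15, where 10.3% of all genes tested were higher. Those 4 rises became 0 in the fit of 6 and without low-dose library 2, 1 without low-dose library 3 and 2 without vehicle library 2. At an unadjusted p below 0.05, 2 were lower at 20 µg/mL, DESeq2 called none, and 1 was called lower without vehicle library 1 or 2. IFIT1, which binds foreign RNA, stood at 3.1, 3.04 and 3.39 CPM in vehicle, 3.95, 4.13 and 4.45 CPM at 20 µg/mL and 2.1, 2.13 and 2.07 CPM at 500 µg/mL, 3 separate groups (log2 -0.60 against vehicle, SE 0.17, adjusted p = 0.011; log2 -0.99 against 20 µg/mL, adjusted p = 0.00062). The naming rule required the doses of IFIT1 to be separate, so that separation is not a result. IFITM3, IRF9 and IFI44 were also lower at 500 than at 20 µg/mL (log2 -0.50, -0.46 and -0.57, adjusted p = 0.0045, 0.0085 and 0.04). Against vehicle the falls besides IFIT1 were IFI6, OAS2 and IFITM3. The 4 falls became 2 without vehicle library 3, high-dose library 1 or high-dose library 2, the rise was lost without vehicle library 3 or any 1 high-dose library, and the 4 genes lower than at 20 µg/mL became 2 without low-dose library 2 and 8 in the fit of 6.

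By the same rule the largest differences between 500 and 20 µg/mL were CYP1A1, ABCG1, CYP1B1 and PHLDB2 among rises and IFIT1, ADH6, IYD and DDX60 among falls. The rule required the doses to be separate, so for these genes that separation is not a result. PHLDB2 stood at 1.92, 3.43 and 1.97 CPM in vehicle, 1.08, 2.01 and 1.51 CPM at 20 µg/mL and 2.52, 2.96 and 3.15 CPM at 500 µg/mL, so the difference between the doses (log2 0.89, adjusted p = 0.017) was not one from vehicle (log2 0.25, adjusted p = 0.37). ADH6, an alcohol dehydrogenase, IYD, which recovers iodide from iodotyrosines, and DDX60, an antiviral helicase, were lower than at 20 µg/mL by log2 -0.90, -0.82 and -0.81. The call of PHLDB2 was lost without high-dose library 2 or 3 or low-dose library 1 or 3 (adjusted p = 0.06 to 0.14), and that of DDX60 without high-dose library 1 or 2 or low-dose library 1 (adjusted p = 0.076 to 0.1).

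Some cytosolic ribosomal protein genes fell by small amounts. Of 76 members 23 fell and none rose at 500 µg/mL, with a median of -0.12, and 15 fell at 20 µg/mL, where the count was 1 in the fit of 6, 56 without vehicle library 1, 4 without vehicle library 3 and 5 without low-dose library 2. At 500 µg/mL none was higher than vehicle at an unadjusted p below 0.05 or by DESeq2, but 1 was called higher without vehicle library 2. At 500 µg/mL 1 of 76 was called in the fit of 6 libraries, 58 without vehicle library 1, 8 without vehicle library 3, 15 without high-dose library 1 and 14 without high-dose library 2. RPS2 fell from 2071, 2148 and 2438 CPM to 1810, 1857 and 1858 CPM (log2 -0.27, SE 0.046, adjusted p = 0.00013).

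Of 13 mitochondrially encoded messages 4 were lower and none higher (1 and 0 in the fit of 6), with a median of -0.26, and none was higher at an unadjusted p below 0.05 or by DESeq2. The share of counts from the mitochondrial genome was 13.22%, 11.48% and 13.93% in vehicle and 10.67%, 12.36% and 10.13% at 500 µg/mL, with overlapping groups. MT-ND6, encoded on the light strand, fell by 0.56 on the log2 scale (SE 0.13, adjusted p = 0.0082). The count was 7 without vehicle library 2 and 1 without vehicle library 3, high-dose library 1 or high-dose library 3. Whether this share moved the other results was not tested.

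Calls in the remaining lists, here and in the next paragraph, stand beside 12.7% of all genes tested higher and 8.39% lower than vehicle. Fatty acid oxidation and PPAR targets had 6 rises of 16, 1 in the fit of 6, and 1 to 4 rises when a library was left out. ATF4 targets had 5 rises and 4 falls of 25, with only the fall of PPP1R15A, a regulator of translation, called in the fit of 6 (log2 -0.40, adjusted p = 1.7e-05). ASNS, an ATF4 target that makes asparagine, overlapped between the groups (log2 -0.01, adjusted p = 0.9). Chaperones of the endoplasmic reticulum had 4 rises and 2 falls of 20, led by the rise of CANX, calnexin (log2 0.24, adjusted p = 3.3e-05), and the fall of HERPUD1 (log2 -0.33, adjusted p = 9.8e-05), with 1 of each called in the fit of 6. HSPA5, the main chaperone there, was higher at 500 than at 20 µg/mL (log2 0.27, adjusted p = 0.00046). Between the doses 2 of the 20 were higher and none lower (10 and 0 in the fit of 6), and 10 were higher and 1 lower at an unadjusted p below 0.05. At 20 µg/mL 1 was higher than vehicle and 8 lower (0 and 1 in the fit of 6), with 13 lower without vehicle library 1 and 5 without vehicle library 3.

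NF-kB targets had 2 rises and 3 falls of 15, with only the fall of NFKB2 called in the fit of 6 (log2 -0.33, adjusted p = 0.00046), and CXCL8, the chemokine IL-8, overlapped between the groups (log2 -0.10, adjusted p = 0.52). P53 targets had 3 rises and 1 fall of 21 (0 and 1 in the fit of 6), led by MDM2 (log2 0.22, adjusted p = 0.00056, and 0.051 in the fit of 6). FOXO and insulin signalling had 2 rises and 3 falls of 16 (1 and 2 in the fit of 6), ERK feedback genes 2 and 2 of 13 (0 and 2), and glycolysis and hypoxia 2 and 2 of 23 (1 and 1). Lysosome and autophagy had 1 rise and 3 falls of 21 (1 and 1 in the fit of 6), YAP targets 1 and 1 of 16 (0 and 1), and the circadian clock 2 and 0 of 15 (1 and 0). Metallothioneins and zinc export had 1 rise and 1 fall of 5 (1 and 0 in the fit of 6), and nuclear respiratory chain subunits 3 and 1 of 32 (0 and 0). All these counts except the falls of NF-kB targets and of FOXO genes and the rise of metallothioneins moved by more than 1.5 times without 1 or another of the 6 libraries. Falls of respiratory chain subunits became 10 without vehicle library 1, and falls of ERK feedback genes became 5 and of clock genes 4 without vehicle library 2. For the clock genes edgeR called no fall, 4 were lower at an unadjusted p below 0.05, and DESeq2 called none.

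**Figure D4:**
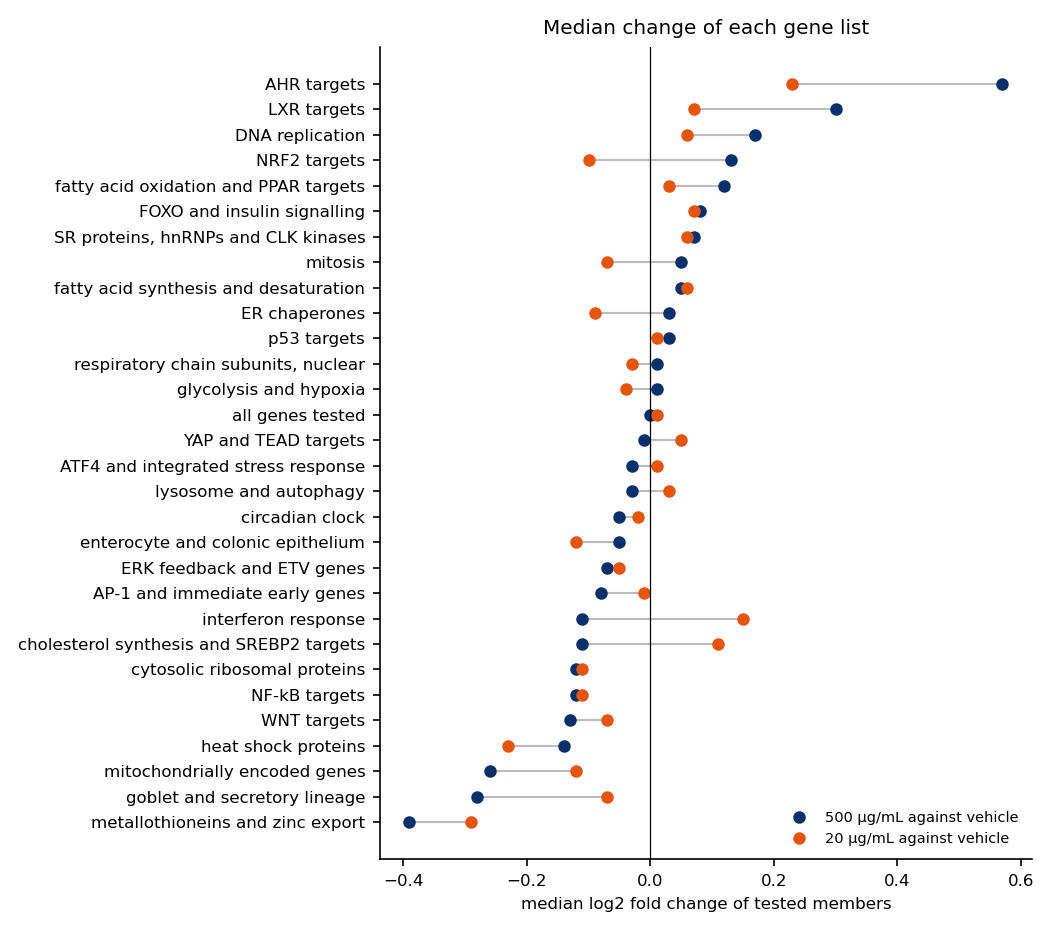
Median log2 fold change of the tested members of each list and of all genes tested (x axis) at 500 µg/mL (blue) and 20 µg/mL (orange) against the same 3 vehicle libraries. AHR, LXR and NRF2 targets lie further up at 500 than at 20 µg/mL, and cholesterol and interferon genes lie above 0 at 20 µg/mL and below 0 at 500 µg/mL.

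Soshiho-tang at 500 µg/mL differed from Yijin-tang at the same label dose in 12.9% of genes, and the comparison is given for 16 marker genes only, of which 11 were called. CYP1A1 stood at 127, 133 and 123 CPM with Soshiho-tang, against 9.41, 6.48 and 7.25 CPM with Yijin-tang (log2 -4.03, SE 0.2, adjusted p = 2.7e-09), and CYP1B1, SLC7A11, HMOX1, NQO1, ASNS, CDKN1A and CXCL8 were also lower with Yijin-tang. ABCG1 was at 3.02, 3.42 and 3.7 CPM with Soshiho-tang, against 8.21, 7.62 and 6.87 CPM with Yijin-tang (log2 1.16, SE 0.13, adjusted p = 9.8e-08). ABCA1 was higher with Yijin-tang as well, with Soshiho-tang libraries at 4.61, 3.53 and 4 CPM, a range that spans the 3 vehicle values (log2 1.01, SE 0.14, adjusted p = 1e-05). CCN2 was higher with Yijin-tang too (log2 0.58, SE 0.17, adjusted p = 0.019), a call lost without Soshiho-tang library 2 or 3 or high-dose library 1 or 3 (adjusted p = 0.055 to 0.16). HMGCS1, MKI67, MUC2, AXIN2 and CLK1 were not called between the formulas.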

How the data were processed

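RNA was measured in 6 libraries of HT29 cells, 3 treated with Yijin-tang at 500 µg/mL and 3 with vehicle, and the 15 further libraries of Yijin-tang and Soshiho-tang entered the same fit. The labels' protocols name a directional kit, 100 bp paired-end reads and a minimum RNA integrity number of 7. The authors deposited expected counts per gene. Per the submitters' processing notes, which give no order, the tools were RSEM 1.3.3, STAR 2.7.3a, FastQC 0.11.9 and Trim Galore 0.6.5, and the build was GRCh38; the annotation release is not given in the sources used here. RSEM divides reads between genes that share sequence, so near copies are uncertain. Between 9.5% and 11.5% of a library's values were not whole.

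Expected counts were rounded to whole numbers. In R 4.3.3, edgeR 4.0.16 filtered genes with filterByExpr, scaled libraries by TMM and compared groups with the quasi-likelihood F-test, with Benjamini-Hochberg adjustment over all 15882 genes of a comparison. An adjusted p in the text is from this test in the shared fit, except where it is given for DESeq2, a fit of 6 libraries or another alternative. The biological coefficient of variation was 4.7%. CPM values are scaled by TMM. The fit was also run on simulated data drawn with the same spread in every group, which cannot check the wider spread among the vehicle libraries. Alternatives were other scalings, no filter, DESeq2 1.42.0, the 6 libraries of a comparison alone, a replicate block and leaving out each library. Nothing in the labels makes the replicates separate cultures: a p-value here reflects the spread among these libraries alone, which may be technical. No pair of libraries within a group agreed within sampling noise by a chi-square test.

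Named genes were the 12 largest rises and 12 largest falls against vehicle past an adjusted p of 0.05, with a mean of at least 2 CPM, separate groups and an approved-style symbol, 4 and 4 against 20 µg/mL, up to 4 members per list with the smallest adjusted p, 16 markers, and members that account for a count of 5 or fewer. GCOM1, a readthrough locus, was left out. EPCAM and KRT20 check the cell type, and further list members are named after their values were seen. Members and all 32 lists were chosen with earlier results of these data known. A further 30 table columns had no name and no values. Symbols were found for 56558 of 60675 identifiers. Some genes that the rule picks are not reported here.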

Additional observations from a re-analysis of the deposited data

Results flagged for a closer look

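For 11 of the 16 marker genes, Yijin-tang and Soshiho-tang at 500 µg/mL differed in a direct test (edgeR, adjusted p below 0.05), so their effects against the shared vehicle libraries differed. On the log2 scale, Yijin-tang minus Soshiho-tang was -4.03 for CYP1A1, -1.82 for CYP1B1, -0.99 for SLC7A11, -1.03 for HMOX1, -0.34 for NQO1, -0.77 for ASNS, -0.46 for CDKN1A and -0.51 for CXCL8. It was 1.16 for ABCG1, 1.01 for ABCA1 and 0.58 for CCN2. The AHR, NRF2 and amino acid stress markers were thus lower with Yijin-tang, and both LXR markers were higher. The label doses are equal, but the design text sets some doses by toxicity, so the comparison at equal dose is uncertain.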

How the results depend on the processing

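A fit of only the 6 libraries compared also changed the genes tested (15242 against 15882 for 500 µg/mL against vehicle). In it 595 genes were higher and 445 lower at 500 µg/mL than in vehicle, 428 higher and 441 lower at 500 than at 20 µg/mL, and 289 higher and 209 lower at 20 µg/mL than in vehicle. Of genes at least 2-fold higher and lower against vehicle, DESeq2 gave 10 and 6, no filter on low counts 58 and 66, and the fit of 6 libraries 15 and 16. With 1 library left out, the counts against vehicle ran from 1230 to 2213 higher and 1056 to 2031 lower, with 24 to 53 and 27 to 46 at 2-fold, those between the doses from 56 to 75 and 84 to 147, and those at 20 µg/mL against vehicle from 987 to 1954 and 720 to 1623. The share of calls that were higher was 60.1% against vehicle, 46.5% with upper-quartile scaling and 48.9% with no filter. No named call reversed its direction under any alternative run, and 81 of the 130 named genes called against vehicle stayed called under all of them, as did 24 of 40 between the doses and 24 of 72 at 20 µg/mL against vehicle.

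The replicate numbers did not pair vehicle with high-dose libraries: the correlation of deviations between same-numbered libraries of these groups was 0.03, -0.03 and 0.04. With the replicate block 2106 genes were higher and 1411 lower against vehicle, 130 and 198 between the doses and 1746 and 1087 at 20 µg/mL against vehicle. Between high-dose and low-dose libraries the same-number correlations were 0.08, 0.09 and 0.05, and each high-dose library correlated best with its own number there. This is a weak hint of pairing between the doses, as the correlations were small. The names of vehicle and treated libraries alike hold the replicate number.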

Other observations

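Identifiers annotated beside the ribosomal RNA repeats on the short arm of chromosome 21 had higher values than vehicle at every dose. They were picked after their values were seen. The identifiers ENSG00000280800, ENSG00000280614 and ENSG00000281181 (FP671120.3, FP236383.2 and FP236383.3) are near copies between which reads were divided, so their values were summed. The sum was 151, 148 and 155 CPM in vehicle, 411, 425 and 453 CPM at 20 µg/mL, 503, 530 and 382 CPM at 100 µg/mL and 561, 364 and 523 CPM at 500 µg/mL. With Soshiho-tang at 500 µg/mL it was 389, 482 and 444 CPM. The sums of the libraries with extract did not overlap vehicle, and the doses of Yijin-tang overlapped each other. At 500 µg/mL each of the 3 was called against vehicle by edgeR (adjusted p = 0.0048, 0.0018 and 0.0011), but none in the fit of 6 libraries (adjusted p = 0.2, 0.14 and 0.14).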
